A study of Homo sapiens with 6 samples.

Results

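The 74 genes described here encode proteins of the mitochondrial ribosome. They are the genes whose symbol is MRPL or MRPS followed by a number, read from probe sets with exactly 1 gene symbol in the array's annotation, and they were taken from 18132 genes measured in all. MRPL genes, named for the large subunit, make up 47 of them and MRPS genes, named for the small subunit, 27. They were read by 164 probe sets, 98 for MRPL and 66 for MRPS genes. MRPL23, MRPL53 and MRPS24 were covered only by probe sets with several gene entries and were left out, as were the antisense gene MRPL20-AS1 and the pseudogene MRPS31P5.

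RNA came from U87, an established human glioma line grown as an adherent culture. The 3 knockdown arrays are from cells labelled U87-PCGF1-shRNA, transduced with a lentiviral hairpin that targets PCGF1, and the 3 control arrays from cells labelled U87-NC, which received a negative control lentivirus. Cells of all 6 samples grew in DMEM with fetal bovine serum. PCGF1 is a subunit of a variant Polycomb repressive complex. The labels do not say how many hairpins were used or whether the cells were clones, and the sample names tie T0 to all knockdown and T1 to all control arrays, so these cannot be told apart from the knockdown. The labels call the replicates biological and do not say whether they were separate cultures or transductions, so the p-values cover only how these arrays vary, and part of that may be technical.

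Mitochondria make a small set of respiratory chain proteins on ribosomes of their own. The ribosomal RNA comes from mitochondrial DNA, while every ribosomal protein is encoded in the nucleus, made in the cytosol and imported. Some of these proteins have counterparts in bacterial ribosomes and others have none there. Inherited loss of single members, MRPS22 and MRPL3 among them, impairs several respiratory complexes together.

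Values are log2 signals on a scale where the median of the 6 arrays is 0 for each probe set. They show how arrays differ and say nothing of how strongly a gene is expressed, so levels of different genes cannot be compared. A gene's value is the mean of its probe sets, and a gene was called changed at a Benjamini-Hochberg adjusted p under 0.05 over all 18132 genes (limma). PCGF1 itself was at 74.3% of the control level, with a log2 fold change of -0.43 ± 0.06 (SE, adjusted p = 0.0041). An exact two-sided permutation test of PCGF1 gave p = 0.1, the smallest that 3 against 3 arrays allow. In a culture measured in bulk, fewer cells of a kind and less RNA per cell cannot be told apart.

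Most mitochondrial ribosomal protein genes differed little between the groups, and those that were called were nearly all lower in the knockdown arrays. Of the 74 genes 8 fell and 1 rose, while 65 did not pass the test. That is 12.2% called, against 11.0% of all genes, so the share called was near the background. The directions were 10.8% lower and 1.35% higher among the members, against 4.63% and 6.36% of all genes. The largest fall was that of MRPL39 and the only rise that of MRPS25. Fold changes were below 0 in 47 members, or 63.5%, as they were in 53.4% of all genes. The median log2 fold change was -0.04, with a range from -0.32 to 0.16, against a median of -0.01 over all genes.

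Counted by array values alone, all 3 knockdown arrays lay below all 3 control arrays in 25 members, or 33.8%, where 15.5% of all genes did so. The knockdown arrays lay above all control arrays in 4 members, or 5.41%, against 17.1% of all genes. The median member of the large subunit was at -0.03, 0.00 and -0.02 in knockdown replicates 1 to 3 and at 0.00, 0.02 and 0.02 in the control replicates. For the small subunit the medians were -0.06, -0.01 and -0.03 in the knockdown and 0.02, 0.01 and 0.03 in the control arrays. In both subunits knockdown replicate 2 lay nearest to the control arrays.

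**Figure D1:**
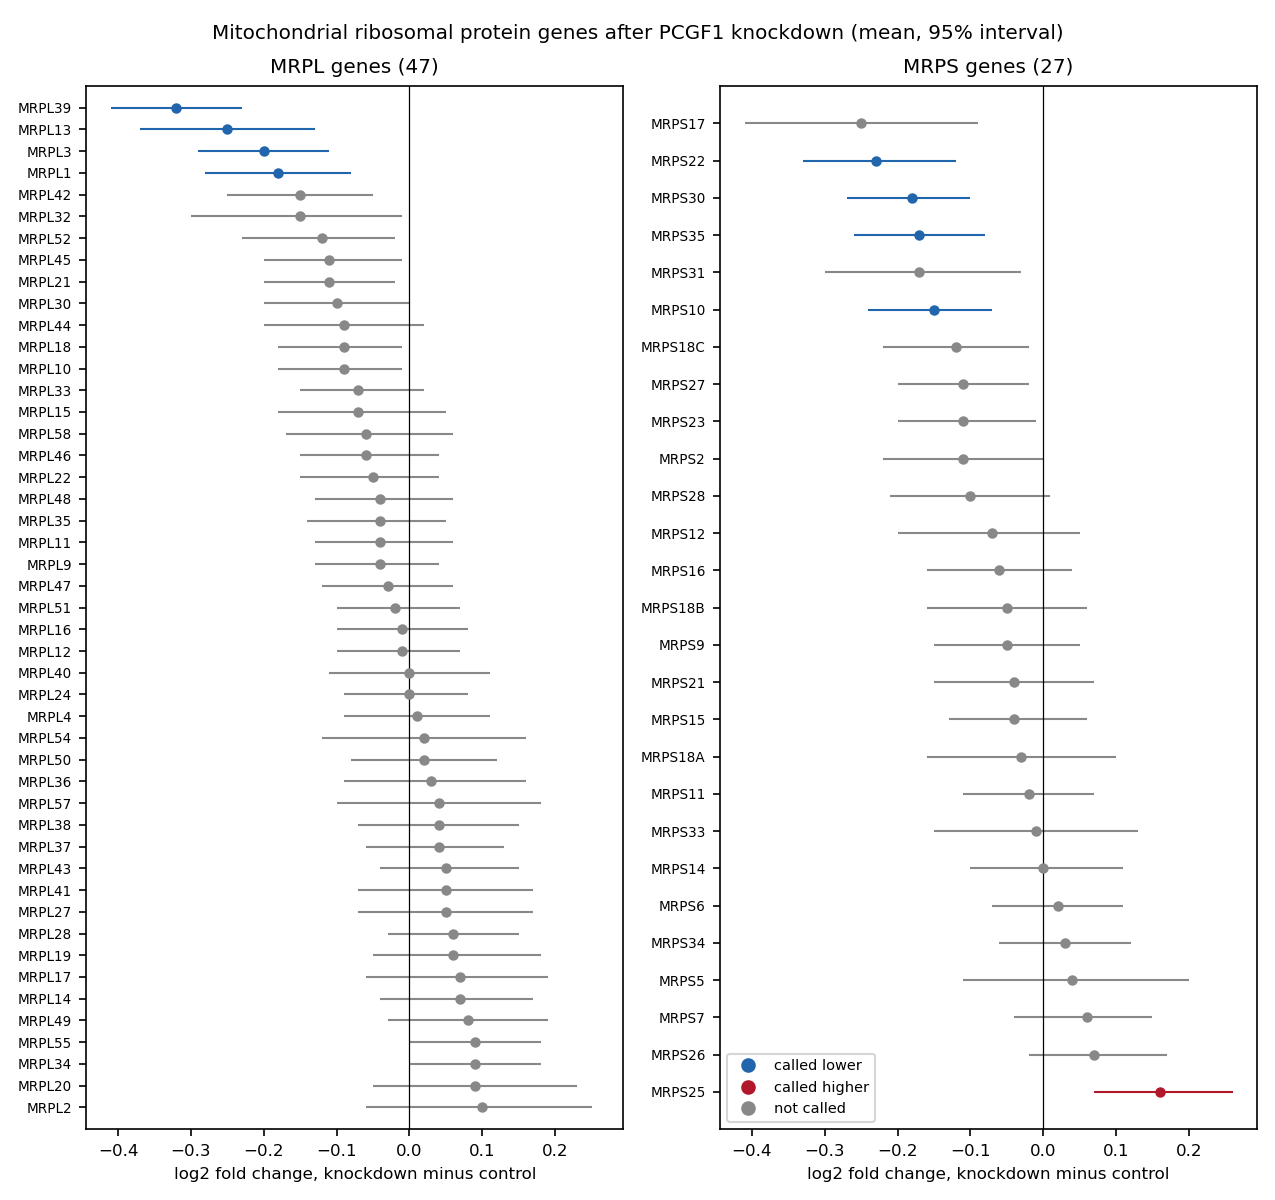
Log2 fold change of each gene, knockdown minus control, on the x axis, with its 95% interval from limma over 3 against 3 arrays; the 47 MRPL genes are on the left and the 27 MRPS genes on the right, each ordered by fold change. Blue marks genes called lower, red genes called higher and grey genes not called; MRPL39 at -0.32 and MRPS25 at 0.16 lie at the 2 ends.

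In the large subunit 4 of 47 genes fell and 0 rose, which is 8.51% called and 0% higher, against 11.0% of all genes called, 4.63% lower and 6.36% higher. The median was -0.02 and 27 genes were below 0. MRPL39, a protein without a bacterial ribosomal counterpart that resembles a threonyl-tRNA synthetase and lies near the exit of the peptide tunnel, was at -0.15, -0.14 and -0.18 in the knockdown arrays and at 0.16, 0.19 and 0.14 in the controls. These groups are narrow and far apart, and the gene was at 80.1% of the control level (95% interval 75.4 to 85%; log2 fold change -0.32 ± 0.04 SE, adjusted p = 0.00225). MRPL13, the counterpart of a bacterial protein, was at -0.21, -0.05 and -0.16 against 0.13, 0.14 and 0.05. Knockdown replicate 2 was the closest to the controls, without overlap, and the log2 signal fell by 0.25 (SE 0.05, adjusted p = 0.023).

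MRPL3, which reaches toward the site of peptide bond formation, was at -0.08, -0.11 and -0.16 in the knockdown and at 0.05, 0.11 and 0.09 in the control arrays. It fell by 0.20 (SE 0.04, adjusted p = 0.0198), and its groups did not overlap. MRPL1 belongs to the mobile stalk past which spent tRNA leaves the ribosome. Its values were -0.11, -0.03 and -0.14 against 0.06, 0.08 and 0.12, again without overlap, for a fall of 0.18 (SE 0.04, adjusted p = 0.0373). The called genes of this subunit thus comprise MRPL39, which has no bacterial counterpart, and 3 of the 29 measured genes that have one.

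The upper end of the large subunit held no called gene. MRPL2, a core protein of the peptidyl transferase region, had the highest log2 fold change at 0.10 (adjusted p = 0.413) and its groups overlapped. MRPL34, MRPL55 and MRPL20 followed at 0.09 each (adjusted p 0.195 to 0.407). MRPL34 and MRPL55 were higher in all 3 knockdown arrays than in any control array, and MRPL20 was not.

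Grouped by place in the subunit, where 11.0% of all genes were called and 4.63% were lower, 7 of the measured proteins surround the exit of the peptide tunnel. MRPL39 alone of these 7 was called, or 14.3%. The others were MRPL45 at -0.11, which ties the ribosome to the inner membrane, MRPL44 at -0.09, MRPL22 at -0.05, MRPL47 at -0.03, MRPL24 at 0.00 and MRPL17 at 0.07. Of the 3 measured proteins of the stalk that receives translation factors, none passed the test: MRPL10 was at -0.09, MRPL11 at -0.04 and MRPL12 at -0.01. Among 8 measured proteins of the central protuberance 0 were called and log2 fold changes ran from -0.09 for MRPL18 to 0.09 for MRPL55. This group includes MRPL58, a peptidyl-tRNA hydrolase built into the ribosome, at -0.06 ± 0.05 (SE).

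In the small subunit 4 of 27 genes fell and 1 rose, which is 18.5% called (14.8% lower and 3.7% higher, against 11.0% of all genes called, 4.63% lower and 6.36% higher), with a median log2 fold change of -0.05 and 20 genes below 0. The difference between the subunits was not tested. MRPS22, a protein without a bacterial ribosomal counterpart, was at -0.20, -0.07 and -0.14 in the knockdown arrays and at 0.07, 0.11 and 0.08 in the controls. Every knockdown array was below every control array, and the fall was 0.23 (SE 0.04, adjusted p = 0.0176), to 85.4% of the control level (95% interval 79.5 to 91.8%). MRPS35, also without one, had -0.12, -0.04 and -0.12 against 0.04, 0.09 and 0.09, without overlap, and fell by 0.17 (SE 0.04, adjusted p = 0.0363). MRPS10, a head protein with a bacterial counterpart, was at -0.09, -0.05 and -0.09 against 0.06, 0.07 and 0.11 and fell by 0.15 (SE 0.04, adjusted p = 0.0375).

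MRPS30 carries a small subunit name, but structures of the ribosome place it, like MRPS18A, in the large subunit. It had the tightest knockdown values of the fallen MRPS genes, at -0.10, -0.08 and -0.08 against 0.08, 0.09 and 0.12, and fell by 0.18 (SE 0.04, adjusted p = 0.0181). Counting these 2 genes with the large subunit gives 5 of 49 large subunit genes lower and 0 higher, and 3 of 25 small subunit genes lower and 1 higher. The medians, -0.03 and -0.05, are then close to those by name.

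MRPS25, another protein without a bacterial ribosomal counterpart, was the 1 gene that rose. It was at 0.06, 0.07 and 0.06 in the knockdown and at -0.15, -0.07 and -0.08 in the control arrays. The knockdown arrays were nearly equal and control replicate 1 lay lowest, for a rise of 0.16 (SE 0.04, adjusted p = 0.0389), or 1.12-fold. The genes next to it from above, MRPS26 at 0.07, MRPS7 at 0.06 and MRPS5 at 0.04, did not pass (adjusted p 0.31 to 0.732).

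MRPS17 had the lowest log2 fold change of the small subunit and was not called. Its values were -0.28, -0.15 and -0.05 in the knockdown and 0.07, 0.18 and 0.01 in the control arrays, so the groups did not overlap but each was wide, and the log2 fold change was -0.25 ± 0.07 (SE, adjusted p = 0.0581). The 3 MRPS18 genes are paralogs descended from 1 bacterial gene. MRPS18A was at -0.03 (adjusted p = 0.792), MRPS18B at -0.05 (adjusted p = 0.524) and MRPS18C, which keeps the bacterial position in the small subunit, at -0.12 (adjusted p = 0.126). None of the 3 passed, and MRPS18C alone had groups that did not overlap. MRPS7, MRPS9 and MRPS14, which share the head of the subunit with MRPS10, were at 0.06, -0.05 and 0.00.

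**Figure D2:**
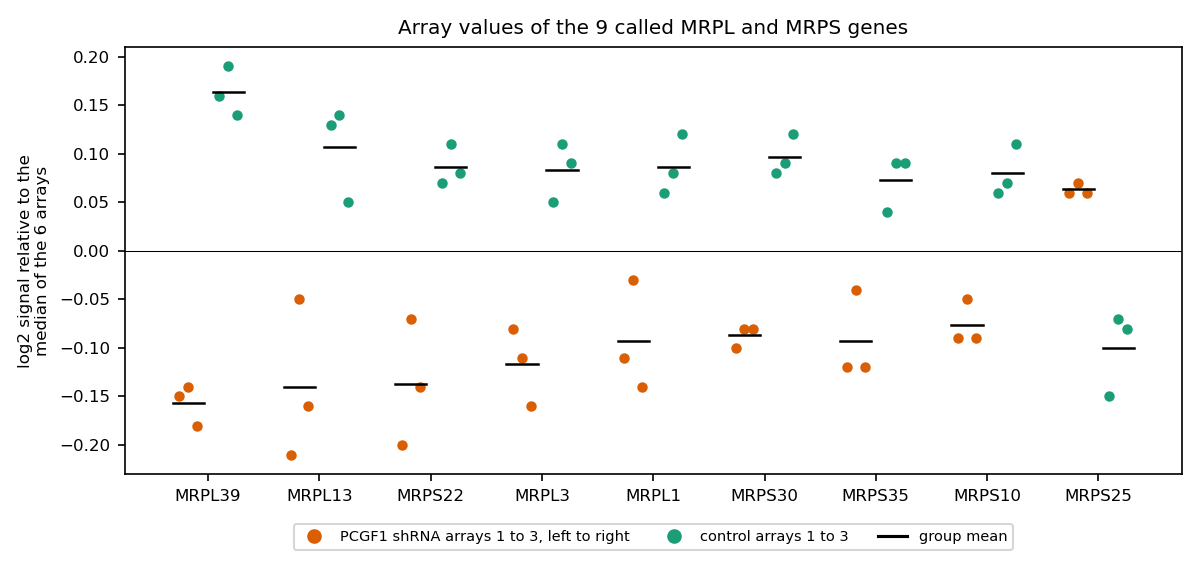
Log2 signal relative to the median of the 6 arrays on the y axis for the 9 called genes, ordered by fold change; orange points are the 3 PCGF1 shRNA arrays, green points the 3 control arrays and black bars the group means. The groups do not overlap in any of the 9, and MRPS25 alone has the knockdown arrays on top.

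By origin, with all 3 MRPS18 paralogs counted as bacterial, 4 of the 46 genes with a bacterial counterpart fell and 0 rose, or 8.7% called. Of the 28 without one 4 fell and 1 rose, or 17.9% called (14.3% lower and 3.57% higher). Over all genes 11.0% were called, 4.63% lower and 6.36% higher. The class medians were -0.04 and -0.03, and the difference between the classes was not tested. Of 5 listed subunits of the mitochondrial ribosome that carry other names, 4 were measured and none was called. AURKAIP1 was not among the genes measured. DAP3, a GTP-binding protein of the small subunit head, was at 0.00, PTCD3 at 0.06, CHCHD1 at 0.02 and GADD45GIP1 at -0.03 (adjusted p 0.35 to 0.991).

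MRPL39 was the only member whose call held whichever array was left out (adjusted p 0.01 to 0.014). Without knockdown replicates 1, 2 and 3 the number of called members was 2, 6 and 1, and without control replicates 1, 2 and 3 it was 5, 1 and 2. Over all genes the same fits called 1070, 1402 and 980 and then 1120, 981 and 1028 in place of 1994. The calls kept were MRPL39 and MRPL3 without knockdown replicate 1, and MRPL39 and MRPL13 without control replicate 3. Without knockdown replicate 3 or control replicate 2 only MRPL39 was called. Leaving out knockdown replicate 2 ended the calls of MRPL3, MRPS10 and MRPS25. Without control replicate 1 the calls of MRPL3, MRPL39, MRPS22 and MRPS30 were kept and MRPS31 was added, which over all arrays had a log2 fold change of -0.17 ± 0.06 (SE, adjusted p = 0.111). MRPS10 and MRPS25 lost their calls in all 6 cases, with adjusted p of 0.0637 to 0.12 and 0.0729 to 0.103. All 9 genes kept their direction in every case.

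Several probe sets were available for 46 of the 74 genes. All of a gene's probe sets were below 0 in 22 of these, all were above 0 in 6, and they lay on both sides in 18. Tested 1 by 1, 7 of the 164 probe sets were called lower and 2 higher, or 5.49%, against 7.30% of all single-symbol probe sets. Both probe sets of MRPL39 were called, at -0.34 and -0.30, and those of MRPL13 agreed closely at -0.25 and -0.24. MRPS25 was less even, since its 5 probe sets ran from 0.00 to 0.30 and 2 of them, both at 0.30, were called. In MRPS35 a probe set at -0.27 was called and another at -0.07 was not. MRPS10 ranged from -0.23 to -0.06 over 3 probe sets, none called. MRPS30 rests on 1 probe set, which was not called when tested as a probe set (limma adjusted p = 0.0533). Neither probe set of MRPL1 was called (limma adjusted p 0.0888 and 0.113). In MRPL3 a probe set at -0.22 was called and another at -0.17 was not. In MRPS22 a probe set at -0.26 was called and another at -0.20 was not.

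The probe sets of MRPL19 and MRPL50 disagreed in sign. In MRPL19 they were at -0.09 and 0.21 and in MRPL50 at -0.16 and 0.20, so the gene averages of 0.06 and 0.02 describe neither. MRPS17 had 4 probe sets between -0.39 and -0.15, all lower. Mitochondrial ribosomal protein genes have many processed copies in the genome. The RefSeq gene table of GRCh38.p14 lists 106 pseudogenes named after 42 of them, among them 6 for MRPS17, 9 for MRPS21, 3 for MRPS35 and 3 for MRPS10, and 46 of the 164 probe sets carry the suffix _s_at or _x_at, which marks probes that may match several transcripts. Without those probe sets 1360 genes were called in all, and MRPL1, MRPL3, MRPS22 and MRPS25 were no longer among them. Their log2 fold changes were then -0.18, -0.17, -0.20 and 0.16 (adjusted p 0.0523 to 0.0753), close to the values above, and MRPS25 has no probe set of that kind. When each gene was read only from its most variable probe set, 1474 genes were called in all and MRPL39, MRPS22 and MRPS35 alone of the members. The 6 other genes had log2 fold changes of similar or larger size, among them MRPL3 at -0.22, MRPS10 at -0.23 and MRPS25 at 0.30 (adjusted p over the 6 genes 0.0508 to 0.141). Variance over all 6 arrays includes the difference between the groups, so this choice favours probe sets with large fold changes. The sizes therefore do not bear on whether the calls hold. Whether transcribed copies contribute to any value was not tested.

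**Figure D3:**
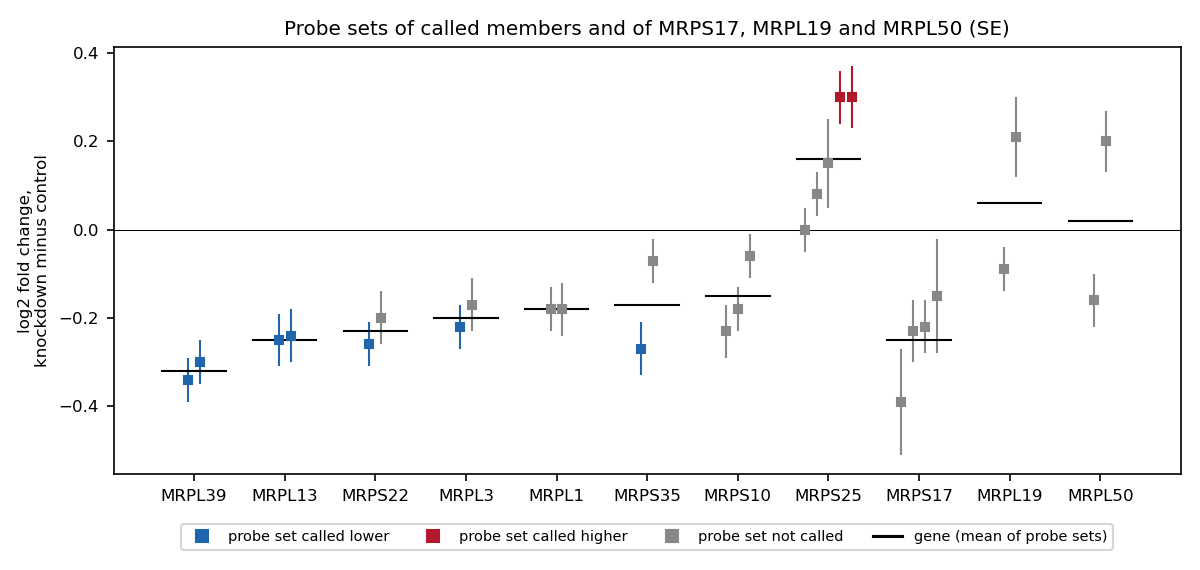
Log2 fold change, knockdown minus control, of each probe set (squares, with the limma SE) for the called genes with several probe sets and for MRPS17, MRPL19 and MRPL50; black bars are the gene values. Blue and red mark probe sets called lower and higher; the 2 probe sets of MRPL39 lie together near -0.3, while those of MRPL19 and MRPL50 lie on both sides of 0.

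The promoters of members that moved are shown because genes of this family are known targets of the activators NRF1 and GABPA, the latter a factor of the ETS family. RefSeq start sites (GRCh38.p14) were found for 67 of the 74 genes. MRPL2, MRPL10, MRPL13, MRPL15, MRPL21, MRPL35 and MRPS28 had no entry. The 250 bases before the start are given 5′ to 3′ on the gene's strand for the gene with the largest fall (MRPL39, chr21:25607482-25607731, minus strand), for 2 other fallen genes (MRPL3, chr3:131502972-131503221, minus strand; MRPS22, chr3:139343744-139343993, plus strand) and for the gene that rose (MRPS25, chr3:15065316-15065565, minus strand). Capitals mark the ETS core CCGGAAG on either strand.
MRPL39: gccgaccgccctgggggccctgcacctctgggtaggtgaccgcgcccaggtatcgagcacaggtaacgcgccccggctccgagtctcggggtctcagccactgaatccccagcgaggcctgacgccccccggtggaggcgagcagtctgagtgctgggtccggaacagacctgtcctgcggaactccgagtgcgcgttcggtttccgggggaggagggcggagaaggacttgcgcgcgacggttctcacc
MRPL3: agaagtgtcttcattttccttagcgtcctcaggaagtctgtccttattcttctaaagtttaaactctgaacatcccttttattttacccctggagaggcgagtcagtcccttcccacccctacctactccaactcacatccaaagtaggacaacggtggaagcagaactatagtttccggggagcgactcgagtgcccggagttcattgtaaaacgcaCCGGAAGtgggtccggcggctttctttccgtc
MRPS22: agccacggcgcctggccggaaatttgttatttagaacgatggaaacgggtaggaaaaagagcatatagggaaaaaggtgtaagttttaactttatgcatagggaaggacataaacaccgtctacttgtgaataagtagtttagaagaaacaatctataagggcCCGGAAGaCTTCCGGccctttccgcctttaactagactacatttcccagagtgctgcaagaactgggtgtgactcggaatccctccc
MRPS25: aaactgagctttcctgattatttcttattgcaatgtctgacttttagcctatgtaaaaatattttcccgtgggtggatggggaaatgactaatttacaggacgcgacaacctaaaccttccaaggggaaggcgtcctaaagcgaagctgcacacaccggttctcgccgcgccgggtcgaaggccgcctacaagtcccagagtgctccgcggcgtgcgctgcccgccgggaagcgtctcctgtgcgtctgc

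The ETS core was present in 22 of the 67 member promoters, or 32.8%, and in 12.2% of the 14085 promoters of measured protein-coding genes, searched over the same 250 bases and both strands. An NRF1 core, GCGCATGC, was present in 8.96% of member promoters and 3.72% of all, and an E-box, CACGTG, in 8.96% and 7.85%. In the sequences above MRPL3 has 1 ETS core and MRPS22 has 2 on opposite strands that do not overlap, while MRPL39 and MRPS25 have none of the 3 motifs in this window. Among the members with an ETS core 3 of 22 fell and 0 rose, and of the 45 without one 4 fell and 1 rose. The medians were -0.03 and -0.02. None of the 6 members with an NRF1 core was called. Over all genes 11.0% were called, 4.63% lower and 6.36% higher, and differences by motif were not tested. A match describes letters only and is not evidence of binding.

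Other genes of mitochondrial translation, mitochondrial DNA expression, biogenesis, the respiratory complexes, ATP synthase and protein import were read from 12 lists with 181 measured genes. Of these 10 fell and 2 rose, which is 6.63% called against 11.0% of all genes, and the median was -0.02. The directions were 5.52% lower and 1.1% higher, against 4.63% and 6.36% of all genes. In the list of tRNA charging 2 of 20 fell and 0 rose. YARS2, the mitochondrial tyrosyl-tRNA synthetase, was at -0.11, -0.11 and -0.14 against 0.11, 0.18 and 0.16 and fell by 0.27 (SE 0.04, adjusted p = 0.00486). GATC, a subunit of the enzyme that amidates glutamyl-tRNA, fell by 0.19 (SE 0.04, adjusted p = 0.022). In the list of translation factors 1 of 12 fell and 0 rose. That gene was TACO1, an activator of the translation of a mitochondrially encoded cytochrome c oxidase subunit, at -0.22, -0.24 and -0.24 in the knockdown and 0.26, 0.32 and 0.22 in the control arrays. Its fall of 0.50 (SE 0.04, adjusted p = 0.000504) was larger than that of any MRPL or MRPS gene. TACO1, YARS2 and GATC here, and MTERF3, MYC and NDUFA12 below, were each read from 1 probe set. For 46 of the 74 members several were averaged. The elongation factor TUFM was at 0.08 (adjusted p = 0.249).

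Of 23 ribosome assembly factors 1 fell, MTERF3, by 0.16 (SE 0.04, adjusted p = 0.0498). Of 19 genes for transcription, replication and RNA processing of mitochondrial DNA 1 fell. TFAM, which packages the DNA and starts its transcription, was at -0.20, -0.13 and -0.11 against 0.12, 0.14 and 0.18, a fall of 0.29 (SE 0.04, adjusted p = 0.00493). Among 8 regulators of mitochondrial biogenesis 1 fell and 1 rose. The shares called in the assembly, mitochondrial DNA and biogenesis lists were 4.35%, 5.26% and 25%. Over all genes 11.0% were called, 4.63% lower and 6.36% higher, and the differences were not tested. PPARGC1A, the inducible coactivator PGC-1 alpha, was at 0.13, 0.18 and 0.13 in the knockdown and -0.16, -0.12 and -0.12 in the control arrays and rose by 0.27 (SE 0.04, adjusted p = 0.00468), while MYC fell by 0.58 (SE 0.04, adjusted p = 0.000321). NRF1 was at -0.16 (adjusted p = 0.0852) and GABPA at -0.04 (adjusted p = 0.739).

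Nuclear subunits of the respiratory complexes and ATP synthase formed 5 lists, and all of these complexes but complex II also contain products of mitochondrial translation. The share called was 5.56% in complex I and 5.88% in ATP synthase. Over all genes it was 11.0%, with 4.63% lower and 6.36% higher, and the difference was not tested. In complex I 1 of 36 fell, NDUFA12 by 0.17 (adjusted p = 0.0313), and 1 rose, NDUFV3 by 0.22 (adjusted p = 0.0329). In complexes II, III and IV 0 of 3, 0 of 8 and 0 of 10 genes were called, and in ATP synthase 1 of 17 fell, the small subunit gene ATP5MJ, by 0.27 (SE 0.05, adjusted p = 0.0106). The medians of the 5 lists lay between -0.01 and 0.05. Of 21 genes for protein import 2 fell and 0 rose. They were HSPA9, the matrix Hsp70 that pulls in proteins such as the members, by 0.18 (SE 0.04, adjusted p = 0.0262), and its exchange factor GRPEL1 by 0.16 (SE 0.04, adjusted p = 0.0369).

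**Figure D4:**
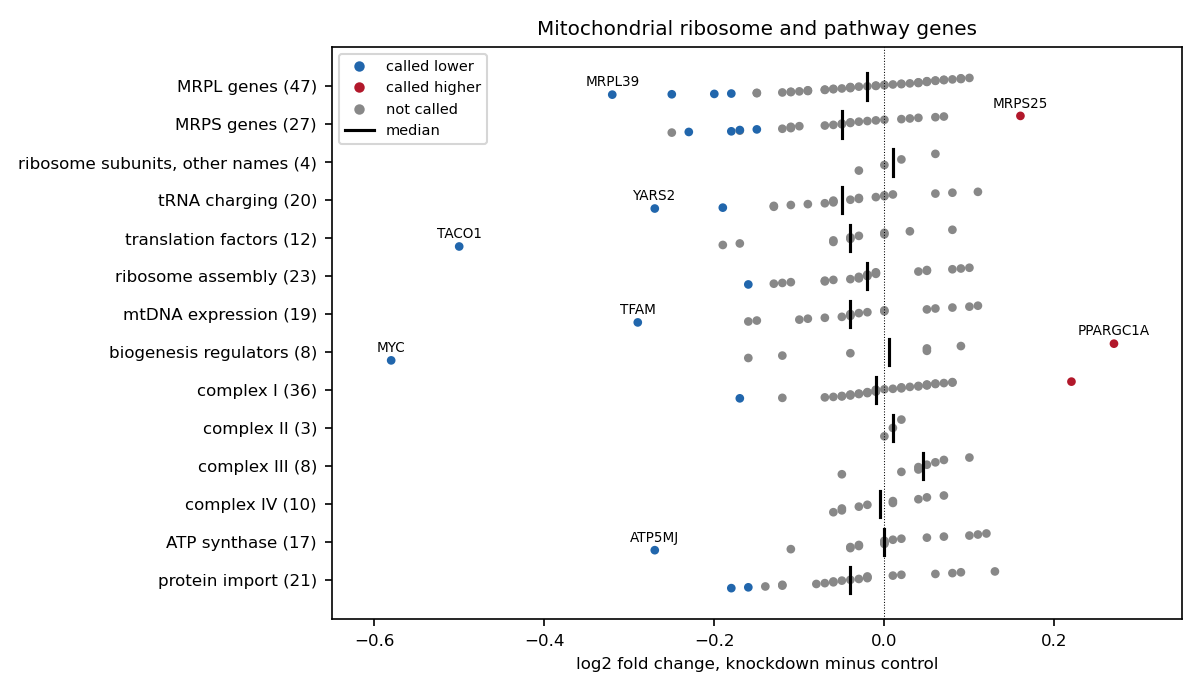
Log2 fold change, knockdown minus control, on the x axis for each measured gene (dots) of both subunits and of 12 lists of mitochondrial genes, with the number of genes in brackets; black bars are list medians. Blue marks genes called lower and red genes called higher; TACO1 at -0.50 and MYC at -0.58 lie furthest left.

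Of the labelled cell type's markers GFAP, S100B, NES, VIM, SOX2, OLIG2 and CD44, 0 of 7 were called, and of 6 markers of leukocytes, endothelium and epithelium 0 were called, with EPCAM the highest at 0.29 (adjusted p = 0.089). Centred values do not show whether any of them is expressed. The 3' and 5' control probe sets of ACTB and GAPDH are centred as well. Their difference therefore shows how arrays differ and not how intact the RNA was. For ACTB, 3' minus 5' was 0.11, 0.06 and 0.01 in the knockdown and -0.03, 0.04 and -0.07 in the control arrays. For GAPDH the group means differed by 0.02. The ranges overlapped for both genes, and their part in the results was not tested.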

How the data were processed

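Total RNA of 6 U87 samples (3 knockdown, 3 control, grouped by the labels) was labelled with biotin and measured on Affymetrix arrays. The authors processed the signals with RMA, per the submitters' processing notes, with no version given, and the deposited values are taken as log2 from that name. Each probe set is also centred on the median of its 6 arrays (largest departure 4.85e-07), a step that no label describes, so brightness and depth are unknown and the number of arrays limits precision. Array medians lay between -0.00238 and 0.00399.

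After 102 control probe sets were removed, the 44988 probe sets with 1 symbol were averaged per gene. Knockdown was compared with control across all genes with limma 3.58.1 under R 4.3.3, using lmFit and eBayes without covariates (two-sided) and Benjamini-Hochberg adjustment. The fit was tested on simulated data.

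Members, lists and tests were chosen with earlier results of these data known. The genes named are all called members, the 4 highest and 4 lowest of each subunit, genes whose probe sets disagree in sign by at least 0.3, the MRPS18 paralogs, subunits with other names and called list genes. Others, and the groups by place in the ribosome and the promoters shown, were chosen after their values were seen. Alternatives were quantile normalization, centred array medians, array weights, a robust variance model, a replicate block, other uses of probe sets and leaving out each array.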

Additional observations from a re-analysis of the deposited data

How the results depend on the processing

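Quantile normalization, centred array medians, array weights and a robust variance model each left the same 9 members called. With the replicate block 1036 genes were called in all in place of 1994, 2 in the large and 1 in the small subunit (MRPL39, MRPL13 and MRPS22), and 6 in the pathway lists in place of 12. Deviations of same-numbered arrays correlated between -0.0511 and 0.0116, so no variation shared by number was seen. This cannot show whether the samples were prepared as pairs. As single probe sets 3285 were called. Reading each gene from its most variable probe set gave 1 large and 2 small subunit calls and a small subunit median of -0.11. That choice favours probe sets with large fold changes. Without _s_at and _x_at probe sets there were 2 and 3 calls and a large subunit median of -0.03. With 1 array left out, 980 to 1402 genes were called, 1 to 3 in the large subunit, 0 to 3 in the small and 6 to 10 in the lists. The medians were then -0.03 to -0.01 and -0.07 to -0.04. With 1 array left out MRPL50 ran from -0.00 to 0.05, MRPS18A from -0.08 to 0.00 and MRPS5 from -0.02 to 0.11. MRPL50 and MRPS18A changed sign without control replicate 1, and MRPS18A and MRPS5 without knockdown replicate 1. None of these 3 genes was called in any setting. PCGF1 stayed between -0.48 and -0.39 with 1 array left out. Another background correction and a filter on dim probes could not be run on centred values.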

Other observations

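Splits of the members by promoter composition, chosen after seeing the data, gave the following values. Of the 34 members whose 250 promoter bases had a GC share at or below the members' median of 60.8%, 6 fell and 1 rose, with a median log2 fold change of -0.05. Of the 33 members above it 1 fell, MRPL39, and 0 rose, with a median of 0.03. Across the 67 members Pearson's r between promoter GC share and log2 fold change was 0.34. The genes share the same 6 arrays, so no p is given. Over the 14085 measured protein-coding genes, whose median GC share was 62.8%, r was 0.08. At or below that median 4.57% of genes fell and 5.02% rose, and above it 4.92% fell and 8.15% rose.

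A gene start on the opposite strand that points away, at most 1000 bases apart or overlapping by at most 100, was found for 21 of the 67 members, or 31.3%, and for 19.6% of the measured protein-coding genes. MRPL46 and MRPS11 start back to back, 320 bases apart, at -0.06 and -0.02, and neither was called. MRPS12 lies 181 bases from SARS2, the mitochondrial seryl-tRNA synthetase gene, and both were at -0.07 without passing. Among the 17 members with a measured neighbour 2 neighbours fell, where 4.63% of all genes did. MITD1, next to MRPL30 at -0.10, fell by 0.17 (SE 0.04, limma adjusted p = 0.0212), and SKA3, a mitotic spindle gene next to MRPL57 at 0.04, fell by 0.26 (SE 0.05, limma adjusted p = 0.0222). These members form 16 distinct pairs, and in 0 of them were both genes called.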
